A study of Homo sapiens with 21 samples.

Results

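The 6 genes described here are the commonly used transcriptional targets of YAP: CCN1 (also written CYR61), CCN2 (CTGF), ANKRD1, AMOTL2, AJUBA (JUB) and LATS2. They were taken by name. Their values come from the array probesets that the platform annotation pairs with only 1 of these symbols, 102 probesets in all, of which 86 passed a filter on dim signal. All 6 genes were among the 16614 genes tested, out of 19426 genes named by such probesets.

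YAP and its paralog TAZ are transcriptional coactivators that bind DNA through TEAD transcription factors. The Hippo kinases, in which STK3 and STK4 activate LATS1 and LATS2, phosphorylate YAP and TAZ and keep them out of the nucleus, and cell attachment, actin tension and serum are known inputs. Several YAP targets, among them CCN1 and CCN2, are also known as serum and growth factor response genes, and AMOTL2, AJUBA and LATS2 encode proteins that act back on the Hippo pathway.

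The cells were MCF10A, an immortalised, non-tumorigenic line of human mammary epithelial cells that depends on epidermal growth factor (EGF) for growth. Cultures at low passage spent 24 h without EGF and then 24 h starved in DMEM/F12 with 1% horse serum. They were collected untreated (0 min) or 20, 40, 60, 120, 240 and 480 min after EGF at 20 ng/ml, with 3 biological replicates, and so 3 arrays, at each of the 7 times. All groups share the line, the starvation and the serum, and the only untreated cells are those of 0 min, so an effect of EGF and an effect of time or handling cannot be told apart. The title of the study speaks of pre-mRNA and mRNA in this response, and the RNA on the arrays was total RNA after DNase digestion and removal of ribosomal RNA.

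Array medians lay between 20.4 and 20.6 intensity units, replicate arrays correlated at 0.944 to 0.988 over probesets, and 3 arrays a time set the limit of precision. Levels are log2(intensity + 16), which understates changes of dim genes, and a gene's level is the median over its kept probesets. A gene was called where limma's adjusted p (Benjamini-Hochberg over all genes tested in that comparison) was under 0.05, and the median change of all genes lay between 0.02 and 0.05 at every time. All 6 basal epithelial markers were measured, with a mean level between 10.6 and 11.06 over the arrays. The fibroblast markers (6 of 7 measured) lay between 6.35 and 6.59, the endothelial ones (3 of 3) between 5.87 and 6.33 and the immune ones (2 of 3) between 5.72 and 6.25. The highest of the fibroblast markers was COL1A1 at 7.31, and it was called lower than at 0 min from 60 min (-0.51) to 480 min (-0.75). DCN, the fibroblast marker next in level (7.30), averaged 7.53 at 20 min and was called lower than that at 240 min (7.05) and 480 min (7.10). At both of these times DCN was also called lower than at 60 min, but it was not called against 0 min. Of the luminal list (6 of 7 measured) KRT8 averaged 9.93 and KRT18 8.96, while ESR1 and ELF5 averaged 5.98 and 5.64. Some epithelial markers also changed against 0 min. LAMB3, a basal marker, was called higher from 40 min (0.57) to 480 min (0.88), with its largest change, 1.14, at 120 min, and KRT18 was higher from 120 min (0.58) to 480 min (0.75). TP63 (0.43) and KRT8 (0.32) were called higher at 120 min alone. The part of these markers and of COL1A1 in the results below was not tested. In extracts of whole cultures, fewer cells expressing a gene and less RNA per cell cannot be told apart.

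Promoter sequence is shown for CCN2 and ANKRD1, whose windows near the start site held the motif bound by TEAD factors more than once, and for AMOTL2, which holds it once in the opposite orientation. AJUBA and LATS2, with 1 match each, are described without sequence. RefSeq promoter windows (GRCh38.p14, 250 bases before to 50 bases after the start) matched 5 of the 6 members with 7 windows, and CCN1 had no match. The TEAD motif GGAATG was searched on both strands, where its other strand reads CATTCC. Of all 35116 windows of this length, 14.03% held it at least once and 0.128% held it 3 times or more. The 250 bases before each start follow, 5′ to 3′ on the gene's strand, which is the minus strand for all of them, with the motif in capitals. The windows are chr6:131951373-131951622 for CCN2, chr10:90921088-90921337 for ANKRD1 and chr3:134374448-134374697 for the first AMOTL2 promoter.
CCN2: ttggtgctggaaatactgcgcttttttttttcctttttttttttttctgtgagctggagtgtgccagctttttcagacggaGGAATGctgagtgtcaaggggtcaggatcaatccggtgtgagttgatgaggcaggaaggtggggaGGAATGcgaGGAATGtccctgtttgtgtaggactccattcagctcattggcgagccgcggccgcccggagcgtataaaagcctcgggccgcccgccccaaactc
ANKRD1: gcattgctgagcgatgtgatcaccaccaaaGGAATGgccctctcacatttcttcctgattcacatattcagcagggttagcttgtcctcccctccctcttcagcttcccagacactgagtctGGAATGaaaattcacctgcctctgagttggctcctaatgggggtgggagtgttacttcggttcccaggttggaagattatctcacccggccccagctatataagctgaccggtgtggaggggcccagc
AMOTL2: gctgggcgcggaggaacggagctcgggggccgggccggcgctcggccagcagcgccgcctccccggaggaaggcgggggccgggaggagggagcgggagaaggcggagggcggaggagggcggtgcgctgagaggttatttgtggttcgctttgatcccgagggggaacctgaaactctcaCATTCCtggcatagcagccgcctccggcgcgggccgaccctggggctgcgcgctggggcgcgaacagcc

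CCN2 carried 3 matches, whose first bases lie at -169, -104 and -95 from the start, in a window of a kind that 0.128% of promoters share. ANKRD1 carried 2, at -220 and -128, and AMOTL2 carried 1, at -69. The first AJUBA promoter held 1 match at -59 and LATS2 held 1 at 10 bases after the start. The second promoters of AMOTL2 and AJUBA held none in this window. First and second follow chromosome coordinate only, and on the minus strand the first lies downstream of the second. The AP-1 motif was searched as TGANTCA with any base accepted at N, a pattern that occurs in 7.71% of windows. It was found once, in the ANKRD1 promoter at -195, where it reads TGATTCA, and it does not overlap the TEAD motif. The CArG box, the motif of SRF, occurs in 1.29% of windows and in none of these 7. A match describes letters only and is not evidence of binding.

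Over the whole course 4 of the 6 genes passed limma's moderated F-test across the 6 times after EGF, against 27.5% of all genes. With each of the 21 arrays left out in turn, 3 to 5 of the 6 passed. The values that follow are those of the fit with all arrays. Adjusted p was 6.95e-13 for CCN1, 4.15e-12 for CCN2, 1.58e-06 for AJUBA and 0.0243 for AMOTL2, and it was 0.12 for LATS2 and 0.607 for ANKRD1. The genes that passed did not share a course. CCN1 and CCN2 rose within 20 min and declined between 60 and 120 min. AJUBA fell at 120 min, and against 0 min AMOTL2 was called higher at 240 min alone. Against 0 min, CCN1 and CCN2 were called higher at 20 min (0.897% of all genes were), at 40 min (1.82%) and at 60 min (4.82%), with no member lower (0.0843%, 0.415% and 0.975%). At 120 min CCN2 was higher (11.2% of all genes) and AJUBA lower (3.21%). At 240 min CCN1 and AMOTL2 were higher (13.5%) and AJUBA lower (6.21%), and at 480 min AJUBA alone was called, lower (15.5% of all genes were higher and 7.11% lower).

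**Figure D1:**
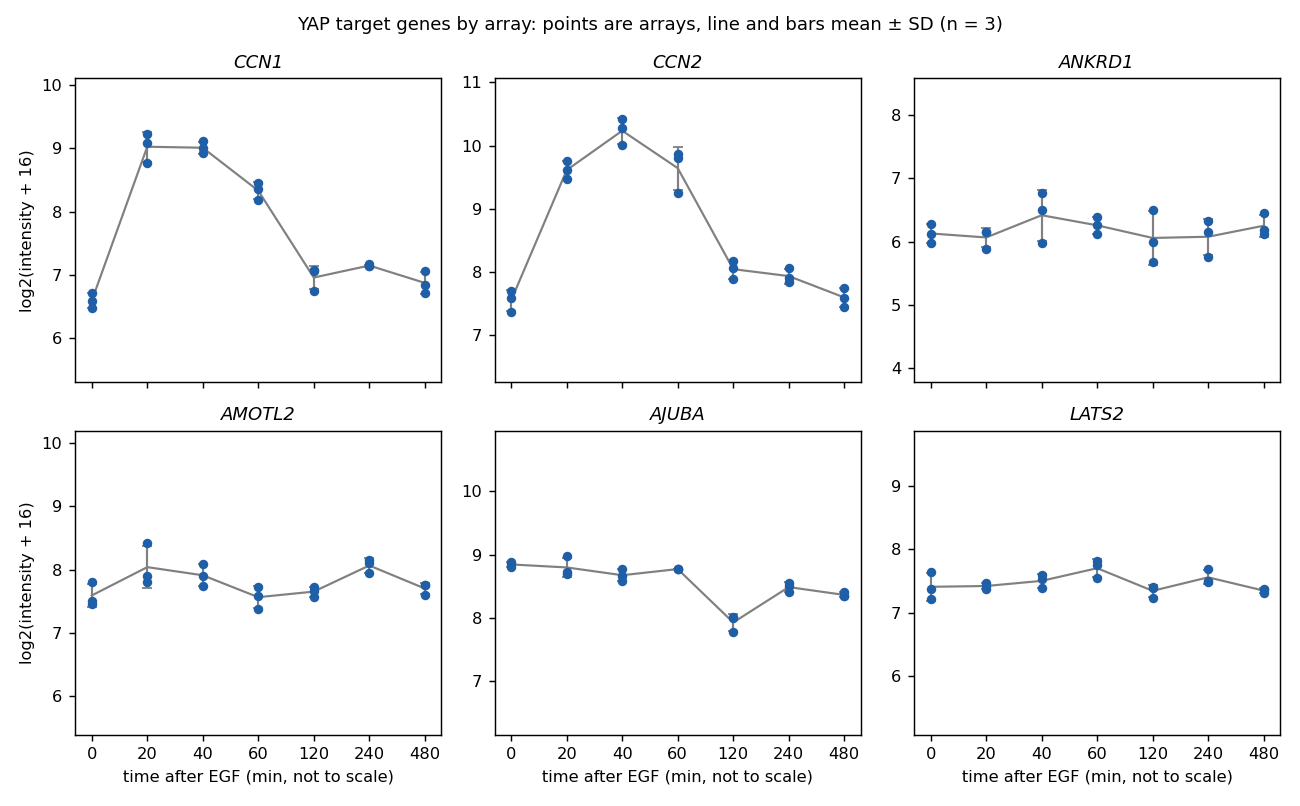
Level, as log2(intensity + 16), of each of the 6 genes in every array against time after EGF (min, categories not to scale), where points are arrays and the line with bars is the mean ± SD of 3 arrays. Each panel spans its own range of levels, so heights compare times within a gene only: CCN1 and CCN2 stand high from 20 to 60 min, AJUBA dips at 120 min, and the arrays of ANKRD1 and LATS2 overlap between 0 min and every later time.

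CCN1 encodes a secreted matricellular protein that binds integrins. Its level was 6.48, 6.59 and 6.72 in the 3 untreated arrays, 9.23, 9.08 and 8.77 at 20 min, 8.92, 9.11 and 9.0 at 40 min and 8.45, 8.36 and 8.18 at 60 min. It was 7.08, 6.74 and 7.06 at 120 min, 7.17, 7.14 and 7.14 at 240 min and 6.83, 7.07 and 6.72 at 480 min. Every array after EGF was above every untreated array, by the narrowest margin at 480 min, and the arrays of 20, 40 and 60 min were above all others. The rise against 0 min was 2.43 ± 0.13 on the log2 scale at 20 min (SE, n = 3 arrays per time, 5.41-fold, limma adjusted p = 2.9e-11). It was 2.42 at 40 min (adjusted p = 1.18e-11) and 1.74 at 60 min (adjusted p = 3.01e-09). At 120 min the change of 0.37 did not pass (adjusted p = 0.0583), at 240 min CCN1 was higher by 0.56 (1.47-fold, adjusted p = 0.00325), and at 480 min the change of 0.28 did not pass (adjusted p = 0.124). Without replicate 2 of 120 min the change at that time was 0.475 and passed (limma adjusted p = 0.0297). It also passed under 4 of 10 alternative settings, at 0.363 without the signal filter (adjusted p = 0.0428), 0.367 under a stricter filter at the 75th percentile of all probesets (adjusted p = 0.0476), 0.299 with the mean over probesets (adjusted p = 0.0343) and 0.424 with the array index as covariate (adjusted p = 0.0432). The array index is an array's median signal of named minus unnamed probesets, with means of 1.24 at 0 min and 1.27 to 1.32 at the later times.

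The decline of CCN1 was largest between 60 and 120 min, at -1.37 (limma adjusted p = 3.61e-07). From 20 to 40 min the 2 means lay within 0.0163 of each other, and from 40 to 60 min CCN1 fell by 0.68 (adjusted p = 0.0177). That last step passed in 2 of 6 fits that left out 1 array, with adjusted p up to 0.188. It missed without replicate 2 or 3 of 40 min, with changes of -0.629 and -0.684, and without replicate 2 or 3 of 60 min, with changes of -0.695 and -0.604. In the order of its levels 20 min came first, then 40, 60, 240, 120, 480 and 0 min. Of the neighbours in that order, 40 against 60 min and 60 against 240 min were called different. The arrays of 240 and 120 min and those of 480 and 0 min did not overlap, but these differences were not called.

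CCN2 encodes a secreted matricellular protein of the same family, known for its part in matrix deposition. Its level was 7.70, 7.60 and 7.37 in the untreated arrays, 9.47, 9.62 and 9.75 at 20 min, 10.28, 10.42 and 10.01 at 40 min and 9.81, 9.87 and 9.25 at 60 min. It was 8.18, 7.89 and 8.07 at 120 min, 7.91, 8.07 and 7.84 at 240 min and 7.45, 7.75 and 7.60 at 480 min. All arrays of 40 min were above all other arrays, and the arrays of 480 min overlapped with the untreated ones. CCN2 rose by 2.06 ± 0.15 at 20 min (SE, n = 3, 4.16-fold, limma adjusted p = 1.19e-08). It stood 2.68 above 0 min at 40 min (6.40-fold, adjusted p = 3.93e-11) and 2.09 at 60 min (adjusted p = 2.44e-09).

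At 120 min CCN2 was still higher, by 0.49 (1.41-fold, limma adjusted p = 0.0311). This call held in 2 of 6 fits that left out 1 array, with adjusted p up to 0.131. It was lost without untreated replicate 2 or 3, with changes of 0.511 and 0.398, and without replicate 1 or 3 of 120 min, with changes of 0.424 and 0.479. It was lost as well without the signal filter (0.46, adjusted p = 0.0736) and with only the arrays of 0 and 120 min in the fit (adjusted p = 0.0615). The changes of 0.38 at 240 min (adjusted p = 0.082) and 0.04 at 480 min (adjusted p = 0.882) did not pass. The step from 20 to 40 min, 0.62, had an adjusted p of 0.072, and 0.0399 without replicate 3 of 20 min. Over the 10 alternative settings this step ran from 0.0674 to 0.632. It passed in 2 of them, with limma adjusted p between 0.0309 and 0.894. From 40 to 60 min the change was -0.59 (adjusted p = 0.156), and from 60 to 120 min CCN2 fell by 1.60 (adjusted p = 4.82e-07). Ordered by level the times ran 40, 60, 20, 120, 240, 480 and 0 min. Among neighbours only 20 against 120 min was called different (limma adjusted p = 2.28e-07). The arrays of 40 and 60 min and those of 240 and 480 min did not overlap, but these differences were not called.

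Between successive times the calls were as follows. From 20 to 40 min none was called (0.572% of all genes were, in either direction). From 40 to 60 min only CCN1 was, lower (0.0722% of all genes lower). From 60 to 120 min CCN1, CCN2 and AJUBA were called lower (1.3%). From 120 to 240 min AJUBA was called higher (0.445%), and from 240 to 480 min none was called (1.47% in either direction). Across the 7 time means CCN1 and CCN2 correlated at 0.97 (Pearson), and the other 14 pairs of members lay between -0.15 and 0.52. The pairs share the same arrays, and 7 means are few.

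The probesets of CCN1 did not follow a single course. All 11 kept probesets were called higher at 20 min, in a fit over 261183 probesets in which 0.445% were. From 20 to 40 min 3 of the 11 were called lower (0.119% of all kept probesets), and the other 8 had positive changes, between 0.10 and 0.61, of which none was called (0.218% were higher). The fall from 20 to 40 min was -1.91 ± 0.16 for probeset 2344899 (SE, n = 3, limma adjusted p = 3.3e-06), -2.66 ± 0.24 for 2344901 (adjusted p = 8.34e-06) and -2.16 ± 0.19 for 2344903 (adjusted p = 7.43e-06). The dim probeset 2344907, which did not pass the filter, was also highest at 20 min.

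The arrays show the split directly. Probeset 2344899 read 7.83, 7.95 and 8.21 before EGF, 10.52, 11.08 and 10.77 at 20 min, 8.92, 9.11 and 8.60 at 40 min and 8.27, 8.18 and 8.18 at 60 min. Probeset 2344900 of the same gene read 8.11, 8.66 and 8.68 before EGF, 10.61, 10.72 and 10.43 at 20 min, 11.00, 11.03 and 10.79 at 40 min and 10.41, 10.52 and 10.46 at 60 min. The first thus lost most of its rise by 40 min, while every 40 min array of the second was above its 20 min arrays. Probeset 2344901 stood at 5.01, 5.57 and 5.58 before EGF, at 8.95, 10.05 and 9.24 at 20 min and at 7.10, 6.87 and 6.30 at 40 min. By 60 min probesets 2344899 and 2344903 stood 0.22 and 0.34 above 0 min and were not called, while the other 9 were called higher (2.94% of all kept probesets). From 40 to 60 min all 11 changes were negative and none was called, although the gene value was called lower (-0.68). From 60 to 120 min 8 of the 11 were called lower (0.683%), all but the 3 that had fallen before. The flat gene value of CCN1 between 20 and 40 min is a median over 3 probesets that were called lower and 8 with positive changes that did not pass. Where these probesets lie in the gene is not given in the sources used here.

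Among the CCN2 probesets 6 of 9 kept were called higher at each of 20, 40 (1.1% of all kept probesets) and 60 min, and the 9 changes from 20 to 40 min were all positive with none called. The 3 that were not called were 2974344 (-0.09 at 20 min and 0.26 at 40 min), 2974347 (0.22 and 0.29) and 2974348 (0.49 and 0.95). Of the kept probesets 8 were highest at 40 min and 1, probeset 2974334, at 60 min. Both dim probesets, which did not pass the filter, were highest at 20 min. From 60 to 120 min 6 of 9 were called lower, led by 2974334 at -2.62 ± 0.17 (SE, n = 3, limma adjusted p = 2.95e-08).

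**Figure D2:**
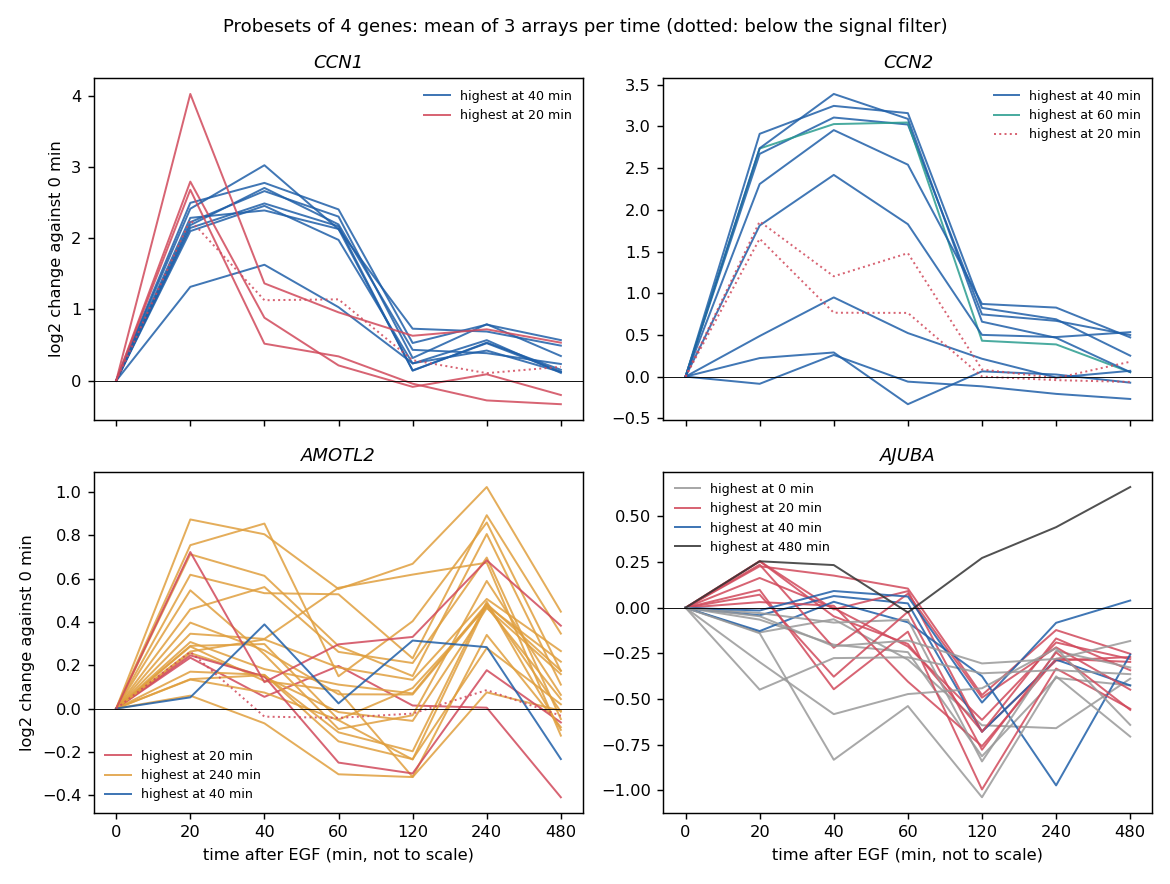
Log2 change against 0 min of every probeset of CCN1, CCN2, AMOTL2 and AJUBA against time after EGF (min, not to scale), where each line is the mean of 3 arrays, its colour gives the time at which that probeset was highest, and dotted lines are probesets below the signal filter. In CCN1, 3 kept lines peak at 20 min and 8 at 40 min, while 8 of 9 kept CCN2 lines peak at 40 min. In AMOTL2 17 of 21 peak at 240 min, and all AJUBA lines but 1 lie below 0 at 120 min.

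AJUBA, a LIM domain protein of cell junctions that is known to bind LATS kinases, took the opposite direction. Its level was 8.84, 8.80 and 8.88 before EGF, 8.98, 8.69 and 8.72 at 20 min, 8.67, 8.58 and 8.77 at 40 min and 8.77 in each array at 60 min. It dropped to 7.77, 8.01 and 8.0 at 120 min, and stood at 8.55, 8.40 and 8.51 at 240 min and 8.34, 8.41 and 8.34 at 480 min. The 120 min arrays were below all others, and those of 40, 60, 240 and 480 min were below the untreated ones by smaller margins. AJUBA changed against 0 min by -0.92 ± 0.10 at 120 min (SE, n = 3, 1.89-fold lower, limma adjusted p = 7.61e-07), by -0.36 at 240 min (adjusted p = 0.0127) and by -0.48 at 480 min (adjusted p = 0.00106). The call at 240 min was lost without replicate 2 of that time, where the change was -0.315 and adjusted p = 0.0663.

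The fall of AJUBA came between 60 and 120 min, at -0.84 (limma adjusted p = 1.08e-05). From 120 to 240 min it rose by 0.56 (adjusted p = 0.00278). With the mean instead of the median over its probesets the changes at 120 and 480 min were -0.59 and -0.316 and the step from 60 to 120 min was -0.444, all still called. The rise from 120 to 240 min was 0.27 and missed (adjusted p = 0.489) under the stricter signal filter. It also missed, at adjusted p = 0.0673, with only the arrays of those 2 times in the fit. Among neighbours in the order of levels (0, 20, 60, 40, 240, 480 and 120 min), 480 against 120 min was called different (limma adjusted p = 0.00737). The arrays of 40 and 240 min did not overlap, but that difference was not called.

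All 19 AJUBA probesets passed the filter, 18 of them had a negative change at 120 min, and 11 were called lower there (2.68% of all kept probesets). The median of their changes at 120 min was -0.64, beside -0.92 for the gene. The probeset with the deepest fall at 120 min was 3556996, at -1.04, and it was also called lower at 40 min (-0.83, 0.356% of all kept probesets) and at 480 min (-0.70, 6.1%). Probeset 3557012 ran the other way, with 0.27 at 120 min and 0.66 at 480 min, neither of them called. At 240 min none of the 19 was called on its own although 18 were below 0 (4.86% of all kept probesets were lower). At 480 min 2 of the 19 were called lower. From 60 to 120 min 4 were called lower (0.683% of all kept probesets), and from 120 to 240 min 1 was called higher (0.138%).

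AMOTL2 encodes an angiomotin family protein that binds YAP at junctions and in the cytoplasm and holds it out of the nucleus. Its level was 7.51, 7.81 and 7.47 before EGF, 7.89, 8.42 and 7.81 at 20 min, 8.09, 7.74 and 7.90 at 40 min and 7.59, 7.73 and 7.38 at 60 min. It was 7.73, 7.57 and 7.67 at 120 min, 8.10, 8.16 and 7.94 at 240 min and 7.76, 7.75 and 7.60 at 480 min. The arrays of 240 min were above the untreated ones, the lowest of 20 min equalled the highest untreated one to the decimals given, and the other times overlapped with 0 min. At 240 min AMOTL2 was higher by 0.47 ± 0.14 (SE, n = 3, 1.39-fold, limma adjusted p = 0.0231). The call held in 2 of 6 fits that left out 1 array, with adjusted p up to 0.0904. It was lost without untreated replicate 1 or 3 (changes of 0.431 and 0.409) and without replicate 1 or 2 of 240 min (0.455 and 0.428).

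At 20 min the AMOTL2 change was nearly as large, 0.45, and did not pass (limma adjusted p = 0.13). Without replicate 3 of 20 min it was 0.565 and passed (adjusted p = 0.0376). The steps from 120 to 240 min (0.41, adjusted p = 0.234) and from 240 to 480 min (-0.36, adjusted p = 0.321) did not pass. No neighbours in the order of levels (240, 20, 40, 480, 120, 0 and 60 min) were called different. Between times that are not neighbours, AMOTL2 was called higher at 240 than at 60 min (0.50, adjusted p = 0.0286, 4.81% of all genes were higher), and the arrays of these times did not overlap. That call was lost without replicate 1 or 3 of 60 min (0.512 and 0.41) and without replicate 1 or 2 of 240 min (0.483 and 0.456), with adjusted p up to 0.146. The 21 kept probesets all had positive changes both at 20 and at 240 min, where the median change of all kept probesets was 0.04. Probesets of the same gene share the same arrays and are not replicates, so their common sign adds no precision to the gene's change. At 20 min none was called, and at 240 min 9 were called higher (9.07% of all kept probesets). Over the course 17 of the 21 were highest at 240 min.

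LATS2 encodes a core Hippo kinase that phosphorylates YAP and TAZ, and it was not called against 0 min at any time. Its arrays ran from 7.21 to 7.64 before EGF, and those of every later time overlapped with them, from 7.24 to 7.82 in all. The largest change was 0.29 ± 0.11 at 60 min (SE, n = 3, limma adjusted p = 0.135), and it was 0.411 and passed without untreated replicate 1 (adjusted p = 0.0464). From 60 to 120 min the change was -0.36 (adjusted p = 0.0925). From 60 to 480 min LATS2 was called lower (-0.35, adjusted p = 0.0364, 6.8% of all genes were lower), with no overlap between the arrays of these times. The call held in 1 of 6 fits that left out 1 array, the one without replicate 1 of 60 min. The change was -0.297 and -0.331 without replicate 2 or 3 of 60 min and -0.335, -0.36 and -0.367 without replicate 1, 2 or 3 of 480 min, with adjusted p up to 0.15. With only the arrays of those 2 times in the fit adjusted p was 0.0632. Of its 22 kept probesets 1 was called higher at 60 min (2.94% of all kept probesets) and 1 at 240 min (9.07%), and 2 were called lower from 60 to 120 min (0.683%).

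ANKRD1, a nuclear ankyrin repeat cofactor of striated muscle that is also a standard YAP target in epithelial cells, had no called change either. Its changes lay between -0.07 and 0.29 with a SE of 0.20, and adjusted p was at least 0.612 at every time. Its arrays ran from 5.99 to 6.28 before EGF and from 5.67 to 6.77 after it, overlapping at each time. Only 4 of its 14 probesets passed the filter on dim signal, and none of the 4 was called at any time. At 40 min these 4 changed by 0.03 to 0.16. The gene's 0.29 there, from medians of levels in each array, exceeded the change of every one of them. At 480 min the median change of the 4 was -0.03, beside 0.12 for the gene. In a fit with the array index as covariate ANKRD1 was called higher at 40 min (0.446, adjusted p = 0.0357), 60 min (0.459, adjusted p = 0.0409) and 480 min (0.43, adjusted p = 0.0154). Without any filter its change at 40 min was -0.1, so these arrays give no settled direction for ANKRD1.

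The genes whose 7 time means ran most like those of each member were sought among 4566 other genes that passed the F-test, as a description over 7 points that share the same arrays. For CCN1 they were BHLHE40, a transcriptional repressor gene (Pearson 0.98, Spearman 0.93), DUSP1, a MAP kinase phosphatase gene (0.97 and 0.93) and its relative DUSP2 (0.97 and 0.79). BHLHE40 rose by 1.80 ± 0.18, DUSP1 by 3.85 ± 0.13 and DUSP2 by 1.39 ± 0.15 at 40 min (SE, n = 3). For CCN2 they were the immediate early gene EGR1 (Pearson 0.99, Spearman 1), DUSP2 (0.99 and 0.86) and NFKBIZ, an NF-kB cofactor gene (0.99 and 1), and 22 genes reached 0.95. EGR1 stood 2.73 ± 0.13 and NFKBIZ 1.52 ± 0.16 above 0 min at 40 min. By Spearman 107 candidates lay above DUSP2 for CCN1 and 74 for CCN2. For CCN1 4 lay above BHLHE40 and DUSP1, and for CCN2 none lay above EGR1 and NFKBIZ.

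For AJUBA the most similar courses were those of STARD13 (Pearson 0.96, Spearman 0.75), MLLT10, a gene for a chromatin factor (0.96 and 0.93), and the transcription factor gene NFIL3 (0.95 and 0.86). This ranking is by Pearson. By Spearman 439 of the 4566 candidates lay above STARD13, 9 above MLLT10 and 85 above NFIL3. At 120 min STARD13 changed by -0.84 ± 0.11, MLLT10 by -0.70 ± 0.15 and NFIL3 by -1.23 ± 0.25 (SE, n = 3). NFIL3 was at -0.24 and not called under the stricter signal filter, and STARD13 was at -0.497 with a pseudocount of 64, still called. For AMOTL2 they were AP3S1 (Pearson 0.92), an adaptor complex subunit gene, the Notch ligand gene DLL1 (0.88) and the stress-induced gene DDIT4 (0.78). AP3S1 stood 0.63 ± 0.13 and DLL1 0.47 ± 0.13 above 0 min at 240 min, and DDIT4 had its largest change, -0.48 ± 0.15, at 120 min. Under the stricter filter AP3S1 was 0.307 and DLL1 0.0963 above 0 min, neither called. AP3S1 was also lost without the filter (0.368, limma adjusted p = 0.0605), and DLL1 with the mean over probesets (0.207, adjusted p = 0.0726) and with only the times compared (adjusted p = 0.0613). DLL1 was lost without untreated replicate 1 (0.294) or replicate 2 of 240 min (0.422). DDIT4 was lost without untreated replicate 1 or 2 (-0.394 and -0.396) and without replicate 2 or 3 of 120 min (-0.432 and -0.512). It was lost too with the array index as covariate (-0.452, adjusted p = 0.0717) and with only the times compared (adjusted p = 0.0999).

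ANKRD1 and LATS2 did not pass the F-test, so likeness to their means rests on differences that did not pass over the whole course. The top genes were NOG (Pearson 0.90), RBP4 (0.85) and CETP (0.84) for ANKRD1, and TRAF3IP3 (0.94), FAM83H (0.90) and SLC22A13 (0.89) for LATS2. The change of RBP4 at 40 min was 0.59, and -0.0774 without the filter. It was not called without untreated replicate 2 (0.509) or replicate 2 or 3 of 40 min (0.554 and 0.543). CETP at 240 min was -0.22, and 0.125 without the filter. NOG was called lower at 120 min only without untreated replicate 1 (-0.549). SLC22A13 at 60 min was 0.00777 under the stricter filter and was not called there. TRAF3IP3 rose by 0.81 at 60 min and was not called without untreated replicate 1 or 2 (0.703 and 0.745) or replicate 3 of 60 min (0.65).

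The kinases and regulators upstream of YAP were called mostly from 120 min on, as were all genes. Of 13 genes of the Hippo list, all measured, none was called higher at 20 min, 1 at 40 min (TAOK1), none at 60 min, 4 at 120 min, 6 at 240 min and 7 at 480 min, and none was called lower at any time. The shares of all genes called higher at these times were 0.897%, 1.82%, 4.82%, 11.2%, 13.5% and 15.5%. Those called lower were 0.0843%, 0.415%, 0.975%, 3.21%, 6.21% and 7.11%. The median change of the list was 0.18, 0.09, 0.15, 0.34, 0.48 and 0.49 at the 6 times, beside 0.02 to 0.05 for all genes. By the F-test 7 of 13 passed, beside 27.5% of all genes, and 6 to 9 of the list passed with 1 array left out in turn. MAP4K4, a kinase that acts on LATS in parallel to STK3 and STK4, stood 1.14 ± 0.13 above 0 min at 480 min (SE, n = 3, limma adjusted p = 8.77e-07).

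STK4, which encodes the kinase MST1, was higher by 0.69 ± 0.12 at 240 min, its partner gene MOB1B by 0.92 ± 0.23 and the scaffold gene WWC1 (KIBRA) by 0.66 ± 0.13 (SE, n = 3). MOB1B was at 0.601 with the mean over probesets and nearly as low with a pseudocount of 64 or the array index as covariate, called in each. At 480 min FRMD6 stood at 0.63 ± 0.13 and NF2, the gene for the membrane scaffold merlin, at 0.46 ± 0.11. TAOK1 stood at 0.49 there and was not called without the filter (0.309), under the stricter filter (0.331) or with the mean over probesets (0.281). LATS1, the paralog of LATS2, was higher by 0.50 at 480 min (limma adjusted p = 0.0113). It was not called without untreated replicate 1 (0.38) or replicate 3 of 480 min (0.409). STK3, SAV1, MOB1A and TAOK2 were not called against 0 min at any time.

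Among the 9 YAP, TAZ, TEAD and VGLL genes, all measured, WWTR1, which encodes TAZ, had the largest change. It was higher by 1.44 at 120 min, 1.77 ± 0.16 at 240 min (SE, n = 3, limma adjusted p = 7.05e-08) and 1.52 at 480 min, and it was not called at 20, 40 or 60 min. YAP1 was higher at 480 min alone, by 0.40 ± 0.11 (adjusted p = 0.00837), and missed without untreated replicate 2 (0.316, adjusted p = 0.0589). TEAD2 was lower from 120 min (-0.39) to 480 min (-0.85 ± 0.11). TEAD4 was higher by 0.53 at 240 min and 0.64 at 480 min, but stood at -0.0884 at 480 min under the stricter filter. VGLL3, a cofactor gene of TEAD factors, was higher at 60 min (0.68 ± 0.18, adjusted p = 0.0235). It missed under the stricter filter (0.538), with the array index as covariate (0.406, adjusted p = 0.0758) and without untreated replicate 1 or 2 (0.552 and 0.694) or replicate 1 or 3 of 60 min (0.687 and 0.534). In all 0, 0, 1, 1, 2 and 3 of the 9 were called higher at the 6 times and 0, 0, 0, 1, 1 and 1 lower, with list medians between 0.04 and 0.24. Of all genes 0.897%, 1.82%, 4.82%, 11.2%, 13.5% and 15.5% were higher and 0.0843%, 0.415%, 0.975%, 3.21%, 6.21% and 7.11% lower. By the F-test 5 of the 9 passed, beside 27.5% of all genes, and 5 to 6 passed with 1 array left out in turn.

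Other genes of a published YAP and TAZ target signature moved in both directions. Of 17, all measured, 3 were called higher at 20, 40 and 60 min with none lower, 4 higher and 2 lower at 120 min, 7 and 5 at 240 min, and 7 and 7 at 480 min. The shares of all genes were 0.897%, 1.82% and 4.82% higher at the first 3 times, 11.2% higher and 3.21% lower at 120 min, 13.5% and 6.21% at 240 min, and 15.5% and 7.11% at 480 min. The median change of the list lay between -0.03 and 0.23. By the F-test 14 of 17 passed, beside 27.5% of all genes, and 13 to 14 passed with 1 array left out in turn. The 3 early ones were F3, GADD45A and NUAK2. F3, the gene for tissue factor, rose by 0.99 at 20 min and stood 1.95 ± 0.15 above 0 min at 240 min, so it stayed high when CCN1 and CCN2 had declined. GADD45A, a growth arrest gene, was higher by 0.64 ± 0.11 at 40 min and lower, at -0.62, by 480 min. NUAK2, a kinase gene, was higher by 0.88 ± 0.13 at 40 min, and not called without the filter (0.423, limma adjusted p = 0.0959).

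The largest late rise in this signature was NT5E, the gene for the ecto-nucleotidase CD73, at 3.36 ± 0.19 at 480 min (SE, n = 3, limma adjusted p = 3.5e-11). The largest falls at 480 min were IGFBP3, an insulin-like growth factor binding protein gene, at -1.97 ± 0.13 (adjusted p = 6.02e-10), CCDC80 at -1.18 ± 0.18, and PTPN14, a phosphatase gene whose product binds YAP, at -0.86 ± 0.10. IGFBP3 was at -1.08 without the filter and CCDC80 at -0.782 with a pseudocount of 64, both still called. ARHGEF17 and AXL, a receptor tyrosine kinase gene, were lower from 120 min on and reached -0.67 and -0.51, and FOXF2 was higher by 0.49 at 240 min. MYOF, CRIM1 and TGFB2 were not called against 0 min at any time.

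The paralogs of the members were called at shares near those of all genes. Of 11 listed, 10 were measured, and 0, 0, 0, 1, 2 and 1 of them were called higher at the 6 times with none lower. Of all genes 0.897%, 1.82%, 4.82%, 11.2%, 13.5% and 15.5% were called higher at these times. The shares called lower were 0.0843%, 0.415%, 0.975%, 3.21%, 6.21% and 7.11%. AMOTL1, the relative of AMOTL2, was higher by 0.36 ± 0.10 at 120 min (SE, n = 3, limma adjusted p = 0.0141), a time at which AMOTL2 changed by 0.06. It was not called without untreated replicate 2 (0.314) or replicate 3 of 120 min (0.296), nor with only the times compared (adjusted p = 0.136). WTIP, the relative of AJUBA, was higher by 0.32 at 240 min (adjusted p = 0.0274), where AJUBA was lower. It missed without untreated replicate 1 or 3 (0.279 and 0.31), without replicate 1 or 3 of 240 min (0.311 and 0.282), with the mean over probesets (0.111), under the stricter filter (0.276) and with only the times compared (adjusted p = 0.0559). The CCN family genes CCN4, CCN5 and CCN6 were not called against 0 min at any time.

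**Figure D3:**
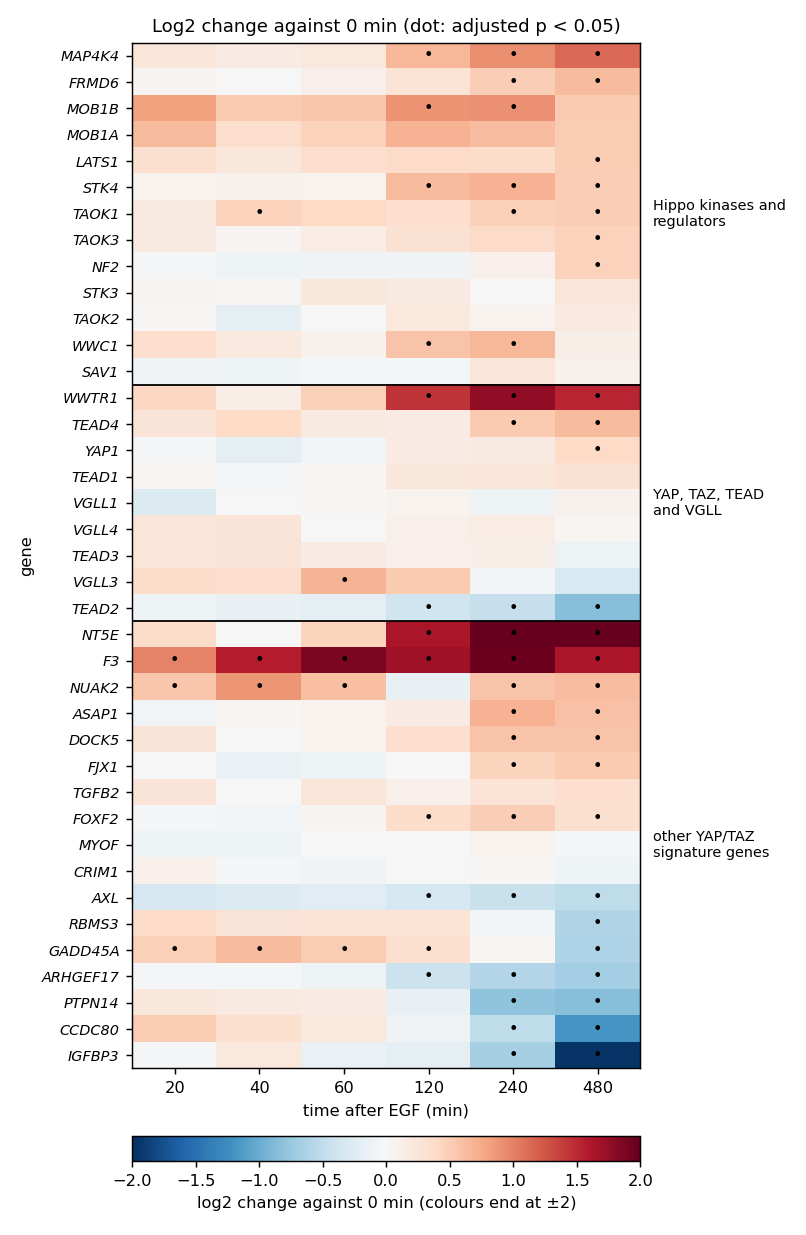
Log2 change against 0 min of the measured genes of the Hippo, YAP/TAZ/TEAD/VGLL and signature lists (rows) at the 6 times after EGF in min (columns), where red is higher, blue is lower, colours end at 2 in either direction and a dot marks a limma adjusted p under 0.05. F3 is red from 20 min on, the dots of the Hippo genes gather at 120 to 480 min, WWTR1 turns red at 120 min, and the signature genes end with 7 higher and 7 lower at 480 min.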

How the data were processed

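The authors deposited linear intensities of 1384231 probesets on 21 arrays. PLIER and Affymetrix Expression Console 1.1 are named per the submitters' processing notes, and what each did is not given in the sources used here. Deposited intensities had nearly equal medians and were not normalised further. They were taken as log2(intensity + 16) with R 4.3.3. Probesets were named from the platform annotation, with symbols updated through RefSeq's gene table, and 354600 had a single gene. The 261183 whose mean reached the median over all probesets (5.18) were kept. A gene needed at least 3 and took their median.

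All arrays entered 1 limma 3.58.1 fit (lmFit and eBayes) with a mean per time, as fixed in the design, and probesets were fitted in the same way. The fit was tested on simulated data for 60 against 0 min. It recovered 21 of 50 genes given a log2 change of 0.5, 44 of 50 at 1 and all 50 at 2 and at 3, with 10 false calls. A change near 0.5 that did not pass may therefore have been missed. Arrays were not paired by replicate letter in this fit. Deviations of same-letter arrays correlated at -0.54 to 0.56 (median -0.01), and those of different-letter arrays at -0.65 to 0.69 (median 0.007). Whether arrays of the same letter were prepared together cannot be told from these values.

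The members, the lists and the tests were chosen with earlier results of these data known. Named genes are the 6 members, up to 5 per list with the smallest F-test p, all genes behind counts of 5 or fewer, and the 3 genes most like each member by Pearson correlation. STK3, SAV1, MOB1A, TAOK2, MYOF, CRIM1, TGFB2, CCN5 and CCN6 fall outside this rule and were named after their values were seen. The 10 alternative settings changed the scaling (quantiles or medians), the pseudocount (1 or 64), the signal filter (none, or the 75th percentile), the gene summary (mean), the covariate (array index), the replicate block or the arrays in the fit (only the times compared). Each array was also left out in turn. Promoter motifs were counted in RefSeq windows.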

Additional observations from a re-analysis of the deposited data

How the results depend on the processing

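The calls of CCN1 and CCN2 at 20, 40 and 60 min and their fall from 60 to 120 min, and those of AJUBA at 120 and 480 min, held under each of the 10 alternatives and with each array of the times compared left out. With the replicate block, CCN1 stood at 2.43 and CCN2 at 2.06 at 20 min, and that block changed no call of a member, a named gene or a list count by over 1.5 times.

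The counts moved by over 1.5 times were these. The number of members called from 20 to 40 min was 1 instead of 0 with a pseudocount of 64 and at the 75th percentile filter. From 120 to 240 min it was 0 at that filter, 2 with the mean over probesets and 0 with only the times compared, instead of 1. From 240 to 480 min it was 1 with the mean, instead of 0. At 480 min it was 2 with the array index covariate, instead of 1, and at 120 min 1 with only the times compared, instead of 2. CCN1 at 120 min passed under 4 of the 10 alternatives, which made 3 members at the 75th percentile, with the mean and with the array index. Without the filter the count stayed at 2, with CCN1 in and CCN2 out. Paralogs passing the F-test were 1 with the mean, instead of 2. Leaving out 1 array gave 1 to 3 members at 120 and at 240 min, 0 to 1 from 20 to 40 and from 40 to 60 min, and 0 to 2 paralogs by the F-test.

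Signs turned mostly among changes that were not called. AMOTL2 at 60 min was 0.0123 after quantile normalisation, 0.00883 with a pseudocount of 64, 0.0121 without the filter, 0.0803 at the 75th percentile and 0.108 with the mean. LATS2 at 20 min was -0.0774 without the filter and -0.127 with the mean, and AJUBA at 20 min 0.0129 with the mean. ANKRD1 was -0.1, -0.133 and -0.16 at 40, 60 and 480 min without the filter and -0.0265 and -0.0246 at 60 and 480 min with the mean. With the array index it was 0.265, 0.317 and 0.217 at 20, 120 and 240 min. CCN4 at 60 min was 0.319 without the filter and 0.00365 with the array index. CETP at 240 min was 0.125, 0.28 and 0.109 without the filter, at the 75th percentile and with the mean. RBP4 at 40 min was -0.0774 without the filter, and at the 75th percentile ANKRD23 at 20 min was -0.067 and TEAD4 at 480 min -0.0884. RBP4 and TEAD4 were called in the main setting, and the cause was not tested.

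With 1 array left out, LATS2 ran from -0.087 to 0.129 at 20 min, -0.00586 to 0.21 at 40 min, -0.163 to 0.053 at 120 min and -0.16 to 0.0564 at 480 min. ANKRD1 ran from -0.136 to 0.0263 at 20 min, -0.296 to 0.122 at 120 min and -0.174 to 0.106 at 240 min. AMOTL2 ran from -0.108 to 0.0784 at 60 min and -0.00328 to 0.167 at 120 min, CCN2 from -0.0489 to 0.118 at 480 min and AJUBA from -0.137 to 0.00443 at 20 min. ANKRD1 has no value at the 75th percentile, where fewer than 3 of its probesets were left. CCN2 at 240 min passed under 4 of the 10 alternatives, with adjusted p between 0.00574 and 0.105.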
